A study of Homo sapiens with 6 samples.

Results

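The genes described here are 10 proteins that read or erase N6-methyladenosine (m6A), chosen by name and not by their values, out of 58735 genes measured in MM.1S, a human cell line established from multiple myeloma. They are YTHDF1, YTHDF2, YTHDF3, YTHDC1, YTHDC2, IGF2BP1, IGF2BP2, IGF2BP3, ALKBH5 and FTO. RNA-seq covered 3 libraries of control cells (si-NC, a negative control siRNA) and 3 of PRMT1 KD cells (siRNA against PRMT1, an arginine methyltransferase), with no other labelled treatment. The siRNA was delivered by lipid transfection at 100 nM and cells were collected after 72 h. The knockdown was transient and in 1 cell line. The comparison asks whether the cells' set of m6A readers and erasers differs in mRNA level when PRMT1 is knocked down.

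m6A is a methyl mark that a writer complex places on adenosines of mRNA, most often within the letters GGAC or close variants. Readers bind the mark and pass the mRNA on to a fate. YTHDF proteins act in the cytoplasm and YTHDF2 recruits deadenylases, YTHDC1 acts in the nucleus on splicing and export, YTHDC2 is an RNA helicase, and IGF2BP proteins stabilise bound mRNAs. The erasers ALKBH5 and FTO are dioxygenases that remove the methyl group.

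In control MM.1S cells 7 of the 10 genes were expressed, namely the 5 YTH readers and both erasers, and the 3 IGF2BP genes had at most 5 reads in any library. ALKBH5 had the highest mean level, 56.3 ± 3.68 FPKM (SD, n = 3), and FTO the lowest of the 7, 3.36 ± 0.222 FPKM. FPKM gives the fragments on a gene relative to its length and to the depth of the library. After PRMT1 KD, none of the 7 passed an adjusted p of 0.05, as 2.05% of all genes tested did. ALKBH5 was lower in each PRMT1 KD library than in each control library, and 25.9% of all genes tested had groups that did not overlap.

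The libraries held 14439217 to 16465026 reads on genes, worked back from the deposited FPKM values. All 8 plasma cell markers examined were at a mean of 1 FPKM or more, with a summed level of 898 to 920 FPKM in control and 889 to 926 FPKM in PRMT1 KD libraries. Of the 8, 0 were called by limma (2.05% of all genes tested) or by its voom method (6.82%) and 4 had an unadjusted p under 0.05, beside 19.5% of all genes. XBP1, a transcription factor of secretory plasma cells, was at 287 ± 4.81 and 262 ± 5.37 FPKM (adjusted p = 0.133, limma), and PRDM1, which drives plasma cell differentiation, at 18.1 ± 0.532 and 15.9 ± 0.901 FPKM (adjusted p = 0.136). Higher in each PRMT1 KD library were CD38, a plasma cell surface enzyme, at 1.92 ± 0.148 and 2.45 ± 0.151 FPKM (adjusted p = 0.193), and MZB1, an endoplasmic reticulum protein of antibody-secreting cells, at 93.0 ± 2.88 and 100.5 ± 3.51 FPKM (adjusted p = 0.243). Of 13 markers of T, B, myeloid, erythroid and fibroblast cells, 2 reached 1 FPKM and 4 were at 0 in all libraries. CD3E, a T cell receptor subunit, was at 33.4 ± 1.89 FPKM in control and 38.1 ± 1.40 FPKM in PRMT1 KD libraries (adjusted p = 0.135), and PAX5, a B cell factor, at 1.11 ± 0.242 and 1.02 ± 0.207 FPKM (adjusted p = 0.863). CD3D, another CD3 subunit, was lower in each PRMT1 KD library, with 31 reads over the control and 6 over the PRMT1 KD libraries (0.678 ± 0.200 and 0.132 ± 0.171 FPKM), and CD2 had 1 read in all. Summed over that list, the level was 33.9 to 37.9 FPKM in control and 38.4 to 40.5 FPKM in PRMT1 KD libraries, and without CD3E it was 1.71 to 2.44 and 1.21 to 1.85 FPKM. The part of these marker differences in the results below was not tested. In bulk RNA, fewer cells expressing a gene and less of its RNA per cell cannot be told apart.

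PRMT1 itself checks the labels. It was at 61.7, 62.8 and 58.9 FPKM in control cells and at 13.3, 14.0 and 12.5 FPKM after PRMT1 KD, so that 21.7% of the control mean remained. The log2 fold change was -2.13 (SE 0.06, adjusted p = 2.77e-05, limma). All fold changes here are on the log2(FPKM + 1) scale, PRMT1 KD against control, and understate the change of low genes.

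The siRNAs that the study lists are shown because their sequences decide where they can pair. It lists 3 against PRMT1 and does not name the one used for these libraries, and it also lists 1 against YTHDF2, used in its other experiments. Each is given as the target strand, 5′ to 3′, with the 7 bases that pair with the siRNA seed (guide bases 2 to 8) in capitals.
PRMT1, first siRNA (si-PRMT1-1): gcaactccatgTTTCATAa
PRMT1, the second (si-PRMT1-2), farther along the coding sequence: agacggtgttcTACATGGa
PRMT1, the third (si-PRMT1-3), nearest the stop codon: ccatcgacctgGACTTCAa
YTHDF2, the one siRNA listed (si-YTHDF2): gcacagaagttGCAAGCAa

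All 4 matched coding sequence in GENCODE 29 (GRCh38). si-PRMT1-1 matched exon 3 of PRMT1, chr19:49681947-49681965 on the plus strand, in 11 of 11 coding transcripts. si-PRMT1-2 matched exon 9, chr19:49686635-49686653, and si-PRMT1-3 exon 10, chr19:49688178-49688196, each in 4 of the 11. si-YTHDF2 matched exon 4 of YTHDF2, chr1:28742857-28742875 on the plus strand, in 4 of 5 coding transcripts. Its best ungapped match had 12 of 19 bases in the principal transcript of YTHDF1 and 13 of 19 in that of YTHDF3, so the match to YTHDF2 was the only complete one among the 3 paralogs.

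Seed matches were counted in the 3′ UTRs of the principal transcripts, on the transcript strand. The si-PRMT1-1 seed site occurred in FTO, IGF2BP1 and IGF2BP3, and in 18.7% of the coding genes tested. The si-PRMT1-2 seed site occurred in none of the 10 genes and in 7.58% of the coding genes tested. The si-PRMT1-3 seed site occurred once each in YTHDF1, YTHDF2, IGF2BP1 and IGF2BP3 and at 2 places in FTO, and in 10.8% of the coding genes tested. ALKBH5 held no seed site of these 3 siRNAs. The shares of all genes were not matched for 3′ UTR length, and a longer 3′ UTR has more places for a match. That length was 10029 bases for FTO, 6209 for IGF2BP1 and 402 for YTHDF3, so the counts show no excess of sites. The study lists no sequence for si-NC, so its seed sites in these genes were not counted. The sites in expressed genes are shown with flanking bases and the seed match in capitals.
FTO, si-PRMT1-1: agcgtaTTTCATAcatgccc
FTO, si-PRMT1-3, site nearer the stop codon: agcctcGACTTCAtgggctc
FTO, si-PRMT1-3, site farther from it: gccaagGACTTCAagtgaaa
YTHDF1, si-PRMT1-3: ctgtgaGACTTCAtatttct
YTHDF2, si-PRMT1-3: ttcactGACTTCAgagacga

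The capitals of the FTO sites lie in exon 9 at chr16:54119665-54119671 for si-PRMT1-1 and at chr16:54118445-54118451 and chr16:54120069-54120075 for si-PRMT1-3, on the plus strand. Those of YTHDF1 lie in exon 5 at chr20:63196372-63196378 on the minus strand, and those of YTHDF2 in exon 5 at chr1:28769052-28769058 on the plus strand. A match of 7 bases is a description and not a site of action.

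YTHDF1, a cytoplasmic reader known for its link to translation, lies at chr20:63195429-63216234 on the minus strand. It was at 28.4, 28.2 and 27.3 FPKM in the control libraries and at 27.3, 28.0 and 28.1 FPKM after PRMT1 KD. The values of both groups lay within the same narrow range, with a log2 fold change of -0.01 (SE 0.04, 95% interval -0.11 to 0.09, adjusted p = 0.940, limma), and its size was smaller in 4.40% of the genes tested.

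YTHDF2, the reader best known for mRNA decay, lies at chr1:28736621-28769775 on the plus strand. It was at 26.7, 28.1 and 26.8 FPKM in the control libraries and at 25.4, 27.4 and 26.5 FPKM after PRMT1 KD. The groups overlapped, and the log2 fold change was -0.04 (SE 0.05, 95% interval -0.15 to 0.07, adjusted p = 0.704), so the interval ran from 0.900-fold to 1.05-fold.

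YTHDF3, a paralog that works with the other YTHDF proteins, lies at chr8:63168553-63212786 on the plus strand. It was at 19.9, 18.1 and 22.5 FPKM in the control libraries and at 20.4, 19.6 and 22.8 FPKM after PRMT1 KD. Replicate 3 had the highest value in each group, and the spread within a group was wider than the difference between groups. Its log2 fold change was 0.05 (SE 0.09, 95% interval -0.16 to 0.27, adjusted p = 0.793).

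**Figure D1:**
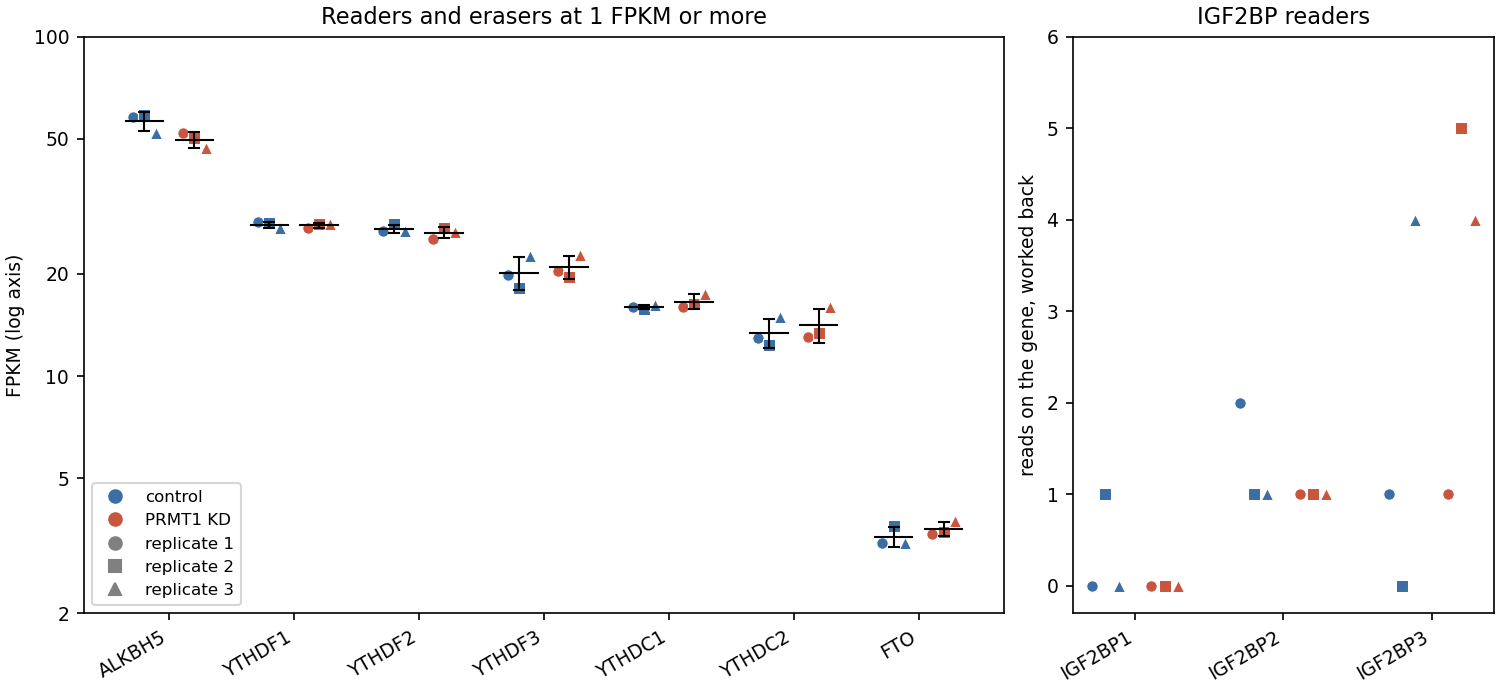
FPKM per library on a log axis for the 7 expressed genes (left; points are libraries, shapes are replicate numbers, bars are mean ± SD of 3) and reads per library for the IGF2BP genes (right; no mean drawn). The 3 ALKBH5 points of PRMT1 KD lie below those of control, the other 6 genes overlap between groups, and no IGF2BP gene has more than 5 reads.

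The nuclear reader YTHDC1, which links m6A to splicing and export, lies at chr4:68310387-68350089 on the minus strand. It was at 15.98, 15.77 and 16.19 FPKM in the control libraries and at 15.93, 16.31 and 17.50 FPKM after PRMT1 KD. The PRMT1 KD value of replicate 3 was the highest of the 6 and the rest overlapped. The log2 fold change was 0.05 (SE 0.05, 95% interval -0.07 to 0.17, adjusted p = 0.638).

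YTHDC2, an RNA helicase with a YTH domain known from meiosis, lies at chr5:113513683-113595285 on the plus strand. It was at 12.97, 12.34 and 14.93 FPKM in the control libraries and at 13.05, 13.40 and 16.03 FPKM after PRMT1 KD. As for YTHDF3, replicate 3 was the highest library of each group. Its log2 fold change was 0.07 (SE 0.10, 95% interval -0.16 to 0.30, adjusted p = 0.732), with the widest interval of the 7 genes and the one of YTHDF1 the narrowest.

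The IGF2BP readers were at or near 0. IGF2BP1 (chr17:48997412-49055650, plus strand) had 0, 1 and 0 reads in control and 0 reads in all 3 PRMT1 KD libraries. IGF2BP2 (chr3:185643739-185825056, minus strand) had 2, 1 and 1 reads in control and 1 read in each PRMT1 KD library. IGF2BP3 (chr7:23310209-23470467, minus strand) had 1, 0 and 4 reads in control and 1, 5 and 4 reads in PRMT1 KD libraries. A count of 0 allows up to 3 reads, which at the length of each gene is 0.0229 FPKM for IGF2BP1 and 0.0245 FPKM for IGF2BP3. IGF2BP2 had at least 1 read in every library. No fold change is given for them, since they fell under the filter of a mean of 1 FPKM and a difference was not detectable at this depth. The exact permutation test of the FPKM values gave p = 1, 0.9 and 0.2 for IGF2BP1, IGF2BP2 and IGF2BP3 (two-sided, 3 against 3 libraries). With 1 read in all, the p of IGF2BP1 could take no other value. Outside control replicate 1, IGF2BP2 had 1 read per library, so its FPKM differed there only through library depth. Nothing is concluded from these p-values.

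ALKBH5, the nuclear eraser, lies at chr17:18183078-18209954 on the plus strand. It was at 58.2, 58.7 and 52.1 FPKM in the control libraries and at 52.0, 50.4 and 46.9 FPKM after PRMT1 KD. Each PRMT1 KD library was below each control library, but the lowest control and the highest PRMT1 KD value differed by little. The PRMT1 KD mean was 88.4% of the control mean, with a log2 fold change of -0.17 (SE 0.06, 95% interval -0.33 to -0.02). Its unadjusted p was 0.0291 and its adjusted p 0.197 in limma, and the exact permutation test gave p = 0.1 (two-sided), the smallest that 3 libraries against 3 allow. The size of this change was smaller in 71.0% of the genes tested.

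FTO, the eraser first known from its link to body mass, lies at chr16:53701692-54158512 on the plus strand. It was at 3.23, 3.61 and 3.23 FPKM in the control libraries and at 3.42, 3.48 and 3.73 FPKM after PRMT1 KD. The groups overlapped through the control value of replicate 2, and the log2 fold change was 0.06 (SE 0.07, 95% interval -0.11 to 0.23, adjusted p = 0.691).

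**Figure D2:**
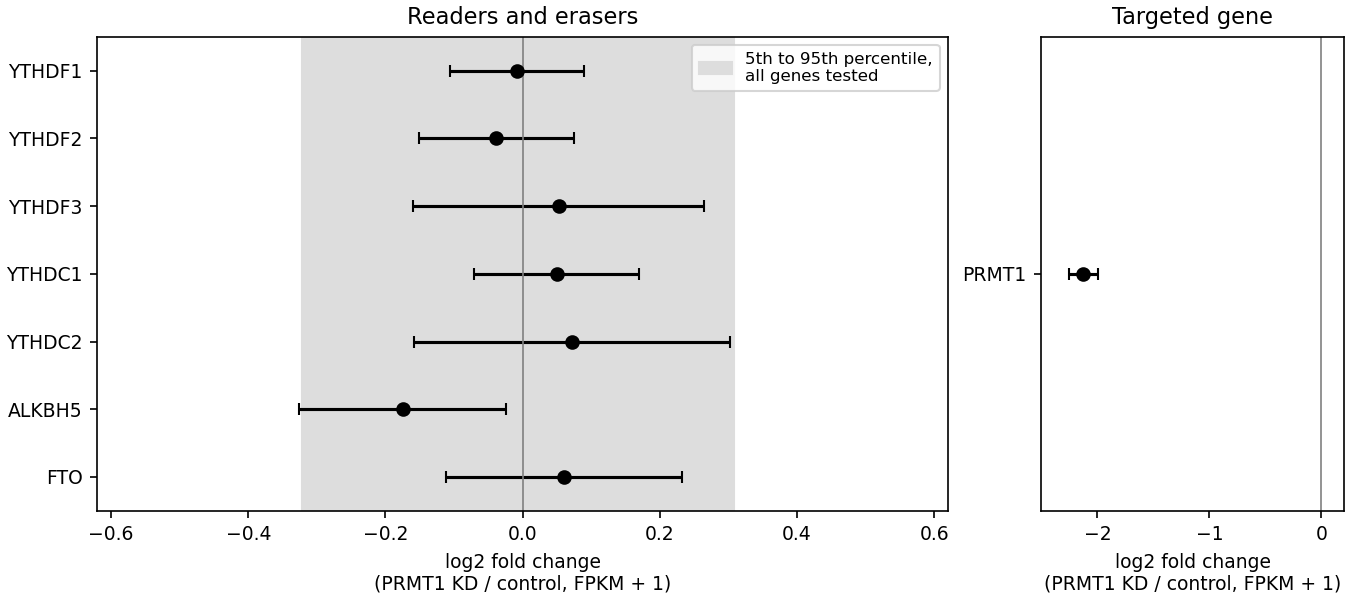
log2 fold change, PRMT1 KD against control on the log2(FPKM + 1) scale, with its 95% interval (limma) for the 7 expressed readers and erasers (left) and for PRMT1 (right, on a wider axis). The grey band runs from the 5th to the 95th percentile of all 13585 genes tested, -0.32 to 0.31, and the 7 point estimates lie inside it, with ALKBH5 at -0.17 farthest from 0.

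The counts are given beside those of all genes tested. Of the 7 genes, 0 were called at an adjusted p under 0.05, beside 2.05% of all 13585 genes (279 genes). limma's voom on the reads worked back also called 0 of the 7, beside 6.82% of all genes (927 genes). At an unadjusted p under 0.05 there was 1, ALKBH5, beside 19.5% of all genes. That count was 0 in limma without its mean-variance trend, without control replicate 1 or 2, and without PRMT1 KD replicate 2 or 3. The groups did not overlap for 1 of 7, again ALKBH5, beside 25.9% of all genes. The 7 log2 fold changes had a median of 0.05, 4 above 0 and 3 below, beside a median of 0.01 over all genes. A share near or under the background is no result about these genes.

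Within a library, the balance of the YTHDF paralogs does not depend on scaling between libraries. YTHDF1 made up 37.9%, 37.9% and 35.6% of the summed FPKM of the 3 paralogs in the control libraries and 37.3%, 37.4% and 36.3% after PRMT1 KD. YTHDF2 made up 35.6%, 37.7% and 34.9% in control and 34.8%, 36.5% and 34.3% after PRMT1 KD. YTHDF3 made up 26.5%, 24.4% and 29.4% in control and 27.9%, 26.2% and 29.5% after PRMT1 KD. All 3 shares overlapped between groups, with exact permutation p = 1, 0.5 and 0.6 for YTHDF1, YTHDF2 and YTHDF3 (two-sided, 3 libraries against 3). The summed level was 75.3 ± 1.16 FPKM in control and 75.1 ± 2.16 FPKM in PRMT1 KD libraries (exact permutation p = 1). The size of a share depends on the gene lengths. With the principal transcript lengths, a setting chosen after seeing the data, the control shares were 24.0% ± 1.36, 30.8% ± 1.93 and 45.1% ± 3.19 for YTHDF1, YTHDF2 and YTHDF3, so the order of the paralogs turned. These shares set the reads of the whole gene against the length of the principal transcript, so reads outside that transcript raise them. The groups still overlapped for all 3.

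The balance of the erasers was compared in the same way. The level of ALKBH5 over that of FTO was 18.0, 16.2 and 16.1 in control cells and 15.2, 14.5 and 12.6 after PRMT1 KD. Its mean was 16.8 ± 1.06 in control and 14.1 ± 1.38 after PRMT1 KD (SD, n = 3 each, exact permutation p = 0.1, the smallest the design allows). The groups did not overlap, and neither did those of ALKBH5 alone. With the principal transcript lengths the means were 10.7 ± 0.677 and 9.004 ± 0.879, so the size of the ratio depends on the length used. The inverse ratio, FTO over ALKBH5, was higher by 0.0118 after PRMT1 KD, and by 0.00767 without PRMT1 KD replicate 3. The ratio of YTHDC1 to YTHDC2 was 1.20 ± 0.101 in control and 1.18 ± 0.0734 after PRMT1 KD, with overlap between the groups (exact permutation p = 0.6).

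**Figure D3:**
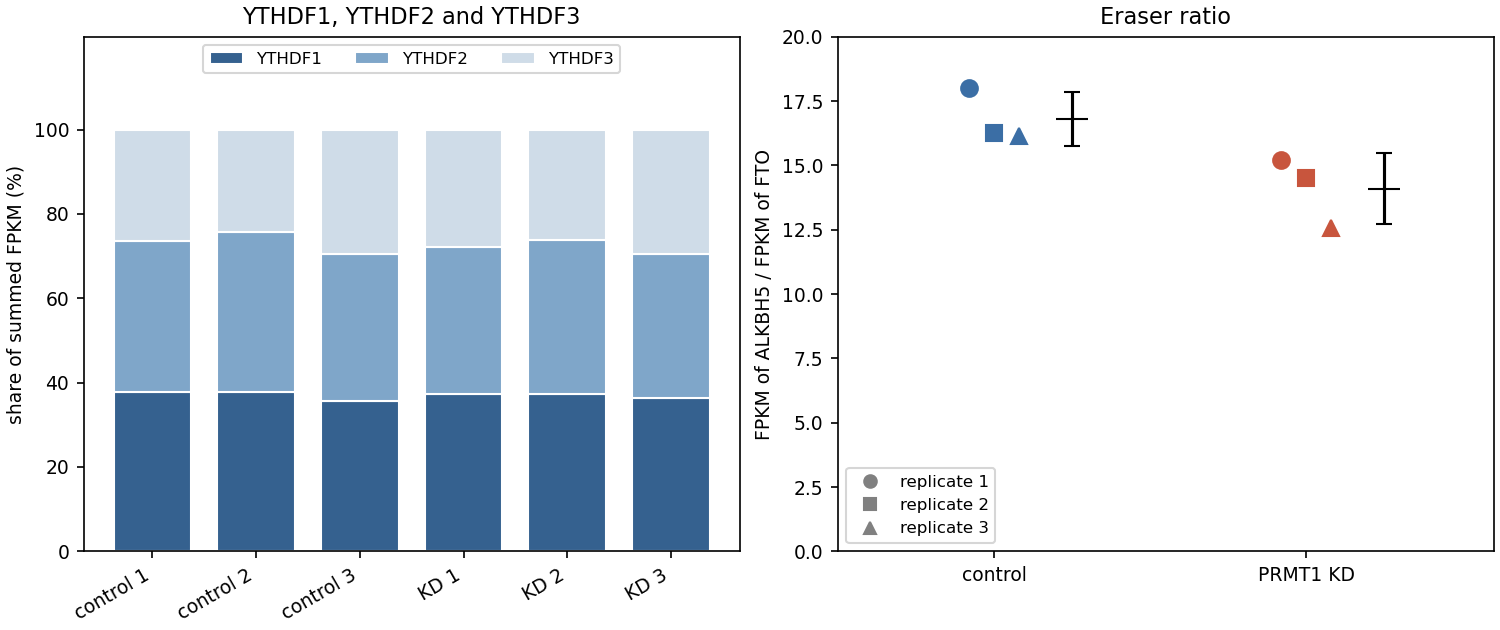
Left, the share of YTHDF1, YTHDF2 and YTHDF3 in their summed FPKM in each library, in percent. Right, ALKBH5 FPKM over FTO FPKM per library (points) with mean ± SD of 3, where the 3 PRMT1 KD values, 12.6 to 15.2, lie below the 3 control values, 16.1 to 18.0, while the shares on the left overlap.

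Levels of different genes can be set side by side only per length. In FPKM as deposited, the order of the control means was ALKBH5 (56.3), YTHDF1 (27.9), YTHDF2 (27.2), YTHDF3 (20.2), YTHDC1 (16.0), YTHDC2 (13.4) and FTO (3.36), followed by IGF2BP2 (0.0171), IGF2BP3 (0.0118) and IGF2BP1 (0.00227). Neighbours overlapped in their control values for YTHDF1 with YTHDF2, for IGF2BP2 with IGF2BP3 and for IGF2BP3 with IGF2BP1. ALKBH5 stood 2.02-fold above YTHDF1. By the mean over control and PRMT1 KD libraries together, ALKBH5 was at the 96.7th percentile of protein-coding genes. YTHDF1 was at the 92.6th, YTHDC2 at the 83.3rd and FTO at the 60.3rd.

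That order depended on the length. The deposited gene length of FTO is 21379 bases, and its principal transcript has 11766. For YTHDF3 the lengths are 6163 and 2363 bases, while for YTHDF1 both are 3301. With reads divided by the principal transcript's length, a setting chosen after seeing the data, YTHDF3 rose from the fourth place to the second, at 52.6 ± 5.78 FPKM, and YTHDF1 went to the fifth at 27.9 ± 0.574 FPKM. ALKBH5 stayed highest at 65.4 ± 4.27 FPKM and FTO lowest of the 7 at 6.10 ± 0.404 FPKM. YTHDC1 came to 34.6 ± 0.454 FPKM, YTHDF2 to 35.8 ± 1.02 FPKM and YTHDC2 to 23.0 ± 2.31 FPKM. The principal transcript of YTHDF3 has a short 3′ UTR of 402 bases, and which transcripts MM.1S cells use was not tested. The reads were those of the whole gene, so any that lie outside the principal transcript raise these values. The values by transcript length are therefore upper bounds for that transcript.

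**Figure D4:**
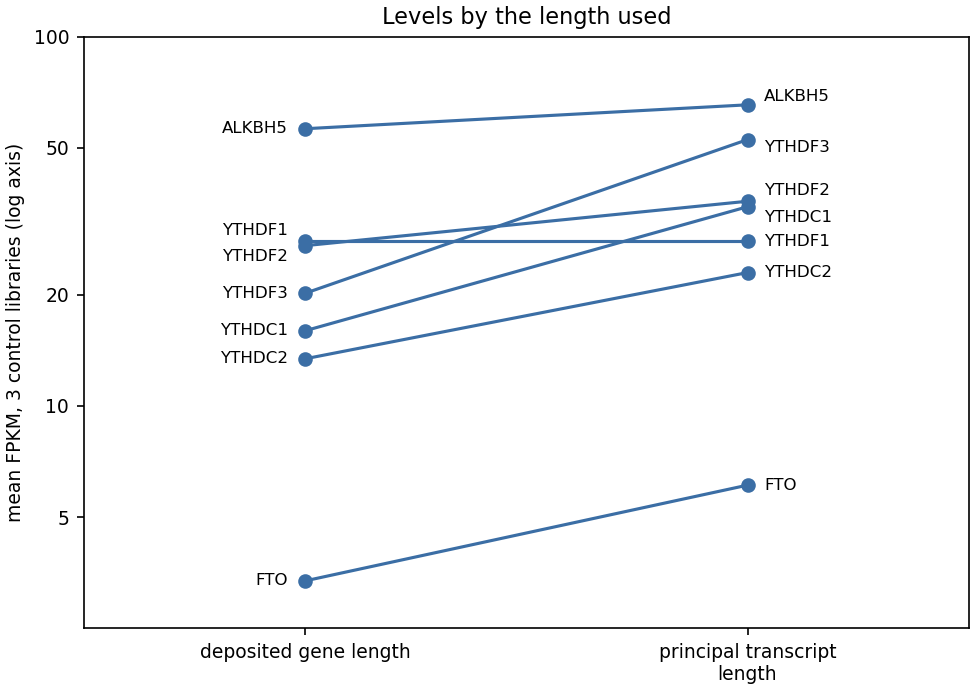
Mean FPKM of the 3 control libraries, on a log axis, for the 7 expressed genes with the deposited gene length (left) and with the principal transcript length (right); each line is 1 gene. ALKBH5 is highest and FTO lowest on both sides, and YTHDF3 moves from 20.2 to 52.6 FPKM.

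Some reads may belong to neighbours. RPGRIP1L overlaps FTO on the opposite strand and had 220 to 287 reads per library, beside 1070 to 1246 for FTO. An antisense gene across ALKBH5, AC087164.1, had 3 to 15 reads beside 2279 to 3074. MALSU1, opposite IGF2BP3, had 347 to 488 reads per library, beside 0 to 5 for IGF2BP3, so these counts were kept apart. The processed pseudogenes YTHDF1P1 and YTHDF2P1 had 0 to 3 reads each. Overlaps were taken over whole gene spans, introns included, and whether exons overlap was not tested. The strand setting of the counting is not given in the sources used here. Where exons do overlap on opposite strands, their reads may therefore not be told apart.

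The mRNAs of the readers and erasers also carry the letters GGAC, the core of the m6A consensus. ALKBH5 held 17 in its principal transcript, 6.19 per kb, more than 82.5% of the 10084 coding genes tested, whose median was 3.75 per kb. YTHDF1 followed with 4.85, IGF2BP1 with 4.71, YTHDF3 with 4.66 and YTHDF2 with 4.44 per kb. IGF2BP2 had 3.80 per kb, just above that median. YTHDC2 had 2.37, FTO 2.63, YTHDC1 2.77 and IGF2BP3 3.06 per kb, all under it. GGAC is a short word that 99.4% of these transcripts hold, and methylation was not analysed here.

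The promoters of IGF2BP3, at or near 0 reads, and of YTHDC1, an expressed reader, are printed so that their CG content can be compared. RefSeq (GRCh38.p14) had promoters for 8 of the 10 genes. Each sequence is the 250 bases before the transcription start, 5′ to 3′ on the gene's strand, with CG pairs in capitals.
IGF2BP3, chr7:23470492-23470741, minus strand: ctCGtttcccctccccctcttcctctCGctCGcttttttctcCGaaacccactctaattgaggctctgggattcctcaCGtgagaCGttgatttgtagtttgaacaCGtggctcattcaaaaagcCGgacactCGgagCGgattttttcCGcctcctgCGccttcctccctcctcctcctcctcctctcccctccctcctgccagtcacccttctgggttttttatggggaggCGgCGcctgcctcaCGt
YTHDC1, chr4:68350091-68350340, minus strand: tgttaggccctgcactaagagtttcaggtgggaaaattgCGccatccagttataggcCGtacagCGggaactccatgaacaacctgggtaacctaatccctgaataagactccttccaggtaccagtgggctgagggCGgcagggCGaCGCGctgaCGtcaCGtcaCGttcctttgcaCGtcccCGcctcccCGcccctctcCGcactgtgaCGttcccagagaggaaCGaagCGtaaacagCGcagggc

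In the window that also takes the 50 bases after the start, IGF2BP3 had 17 CG pairs and YTHDC1 had 23, beside a median of 14 over 35116 promoters. IGF2BP2, which had at most 2 reads per library, had 38 at its upstream start and 3 at the other. Of the expressed genes, YTHDF1 had 50, ALKBH5 39, YTHDC2 25, FTO 22 and YTHDF2 16 or 43 at its 2 starts. The CG count thus overlapped between the genes near 0 reads and the expressed genes.

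The writers were described from a list of 13 genes for m6A-related methyltransferases and their partners. Not all of them belong to the complex that places the mark on mRNA. All were tested. Of the 13, 0 were called by limma (2.05% of all genes) or voom (6.82%), 0 had an unadjusted p under 0.05 (19.5% of all genes) and the median log2 fold change was 0.05. METTL16, which methylates U6 and a MAT2A hairpin, was at 24.5 ± 0.262 FPKM in control and 26.3 ± 0.872 FPKM after PRMT1 KD (log2 fold change 0.10, adjusted p = 0.270). TRMT112, the partner of METTL5 and other methyltransferases, was at 75.3 ± 5.47 and 68.5 ± 4.47 FPKM (log2 fold change -0.13, adjusted p = 0.352).

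Among 11 other RNA-binding proteins linked to m6A, 0 were called by limma (2.05% of all genes) or voom (6.82%) and 1 had an unadjusted p under 0.05 (19.5% of all genes), with a median log2 fold change of 0.07. FXR1, a paralog of the fragile X protein, was at 13.7 ± 1.15 and 16.3 ± 1.95 FPKM (log2 fold change 0.24, adjusted p = 0.225). LRPPRC, a mitochondrial RNA-binding protein, was at 39.2 ± 2.58 and 43.4 ± 3.79 FPKM (log2 fold change 0.14, adjusted p = 0.355).

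The decay partners of YTHDF2 cover the CCR4-NOT deadenylase complex and the RNase P and MRP subunits with their linkers. Of 22 genes 0 were called by limma (2.05% of all genes) and 1, CNOT6, by voom (6.82%), 4 had an unadjusted p under 0.05 (19.5% of all genes), and the median log2 fold change was 0.01. The groups did not overlap for 8 of the 22, beside 25.9% of all genes. The catalytic deadenylase subunit CNOT6 was at 9.66, 9.91 and 10.6 FPKM in control and at 12.2, 12.0 and 12.7 FPKM after PRMT1 KD. Its groups did not overlap (log2 fold change 0.27, SE 0.05, adjusted p = 0.0620, and 0.0161 with voom). Its paralog CNOT6L was at 9.36 ± 0.536 and 11.0 ± 0.742 FPKM (log2 fold change 0.22, adjusted p = 0.143).

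Of 8 partners of the YTHDC and IGF2BP readers (9 gene records), 6 were tested and 1 was called, beside the same 2.05% of all genes. PABPC1, the cytoplasmic poly(A)-binding protein, was at 753, 761 and 730 FPKM in control and at 856, 895 and 882 FPKM after PRMT1 KD. Each PRMT1 KD library was higher, with a log2 fold change of 0.23 (SE 0.04, adjusted p = 0.0484, limma). The adjusted p lay between 0.0809 and 0.189 when any 1 of the 6 libraries was left out, so the call was lost without each of them, and it held in 5 of 15 alternatives. The log2 fold change lay between 0.21 and 0.25 in the 15. PABPC1 has processed pseudogenes that can share its reads. The 3 records not tested were MEIOC and both records of MATR3, which share sequence, so that the level of MATR3 is uncertain.

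Of the 7 AlkB family relatives of ALKBH5 and FTO, 0 were called by limma (2.05% of all genes) or voom (6.82%) and 1 had an unadjusted p under 0.05 (19.5% of all genes), with a median log2 fold change of -0.0014. ALKBH8, a tRNA-modifying enzyme, was at 6.05 ± 0.324 and 6.93 ± 0.426 FPKM (log2 fold change 0.17, adjusted p = 0.224). ALKBH7, a mitochondrial member, was at 43.5 ± 3.73 and 37.4 ± 4.75 FPKM (log2 fold change -0.22, adjusted p = 0.297).

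**Figure D5:**
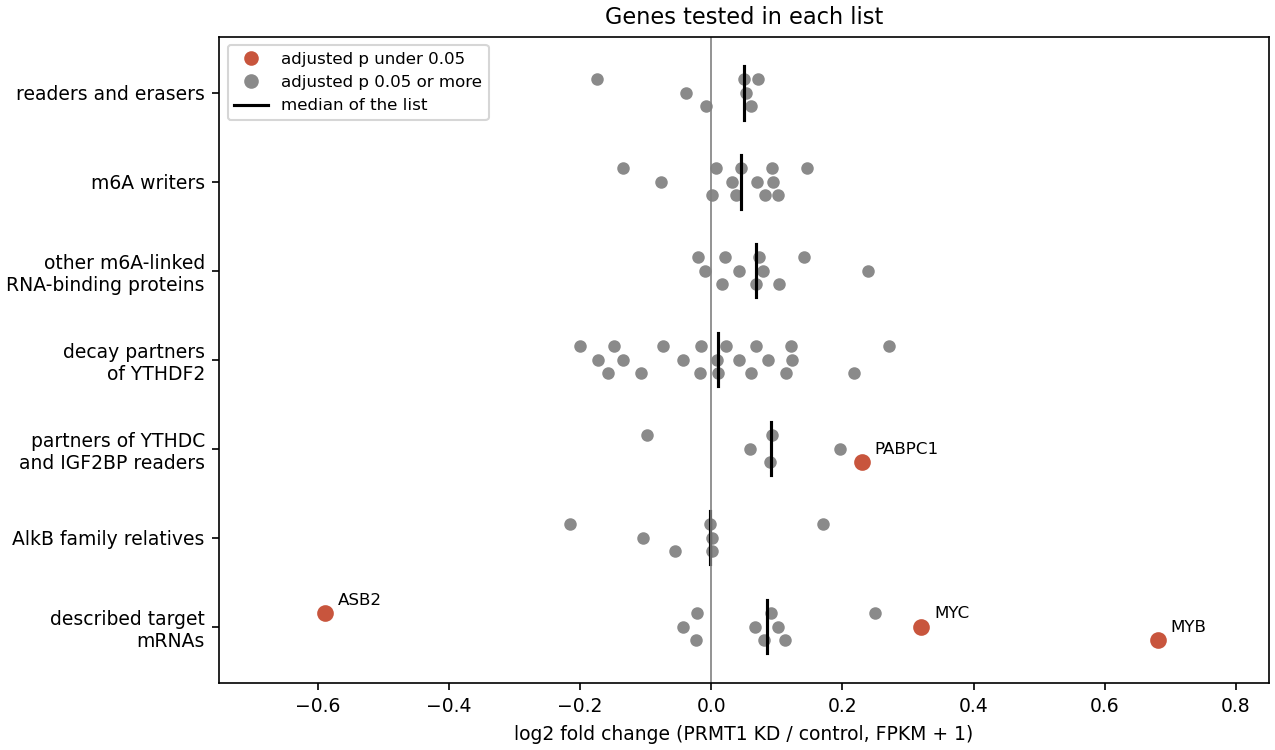
log2 fold change (PRMT1 KD against control, FPKM + 1) of each gene tested in the readers and erasers and in 6 lists of related genes; red points have an adjusted p under 0.05 and the black line is the median of a list. Of the readers and erasers none is red, and the 4 red points are PABPC1, MYC, MYB and ASB2.

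Of 21 mRNAs (22 records) that work in other cells has described as targets of readers, erasers or writers, 12 were tested and 3 were called, beside 2.05% of all genes tested. limma's voom also called 3, beside 6.82% of all genes tested. The list was not chosen blind to these data, so these shares are no evidence of an excess. MYB, a transcription factor of blood progenitors, was at 19.3, 19.2 and 21.2 FPKM in control and at 30.8, 30.5 and 36.4 FPKM after PRMT1 KD (log2 fold change 0.68, SE 0.08, adjusted p = 0.0194). MYC, a growth-driving transcription factor described as an IGF2BP target in other cells, was at 223, 234 and 212 FPKM in control and at 286, 284 and 267 FPKM after PRMT1 KD (log2 fold change 0.32, SE 0.05, adjusted p = 0.0399). No IGF2BP gene had more than 5 reads in any library here. ASB2, a ubiquitin ligase subunit described as an FTO target in leukaemia, was at 12.4, 12.1 and 11.1 FPKM in control and at 7.64, 7.52 and 7.54 FPKM after PRMT1 KD (log2 fold change -0.59, SE 0.06, adjusted p = 0.0126). The groups did not overlap for 4 of the 12 genes tested, these 3 among them, beside 25.9% of all genes tested.

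These 3 calls moved with single libraries. MYC lost its call without any 1 of the 6 libraries (adjusted p 0.0683 to 0.170). MYB lost it without control replicate 1 (0.114) or 2 (0.0889) and without PRMT1 KD replicate 1 (0.0569) or 2 (0.0720), and kept it without control replicate 3 (0.0473) or PRMT1 KD replicate 3 (0.0414). ASB2 lost it without control replicate 1 (0.0938) or 2 (0.0685) and without PRMT1 KD replicate 2 (0.0720) or 3 (0.0504), and kept it without control replicate 3 (0.0246) or PRMT1 KD replicate 1 (0.0495). Of the 15 alternatives, ASB2 was called in 11, MYB in 9 and MYC in 7. The log2 fold changes kept their sign in all 15 alternatives, between 0.60 and 0.73 for MYB, 0.28 and 0.36 for MYC, and -0.65 and -0.56 for ASB2. The list was written with earlier results of these data known, so neither its count of calls nor their direction is independent evidence. Its median log2 fold change was 0.09, beside 0.01 over all genes tested, and whether any of these mRNAs carries m6A in these cells was not analysed here.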

How the data were processed

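FPKM was deposited by the authors for every gene in 6 MM.1S libraries (3 control, 3 PRMT1 KD), with gene length, coordinates (hg38) and type. The submitters' processing notes name featureCounts 1.5.0-p3. The aligner, strand setting and annotation release are not given in the sources used here. Every gene identifier (58735) matched GENCODE 29, with the same coordinates for the 10 readers and erasers. Groups came from the sample labels, and siRNA dose and time from the study's methods.

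FPKM times gene length gave whole multiples of 1 step per library for 100% of values above 0 (tolerance 0.01 reads), so reads were worked back. The steps showed that a median-of-ratios scaling between libraries was already in the values. The study calls its replicates dependent biological replicates and does not say whether these libraries came from separate cultures, so p-values and the limma intervals measure only the spread between these libraries. Floors for a count of 0 cover counting error only.

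log2(FPKM + 1) was tested with limma 3.58.1 in R 4.3.3 (mean-variance trend, two-sided, Benjamini-Hochberg) over 13585 genes with a mean of at least 1 FPKM, at an adjusted p of 0.05. The planned fit used no block. Single values had an exact permutation test (scipy 1.17.1, Python 3.11.15). The fit was tested on simulated data. Principal transcripts were taken by APPRIS rank, support level and coding length from GENCODE 29.

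The genes and lists were chosen with earlier results of these data known, the 10 genes by name and not by their values. Named are the 10 genes, PRMT1, and from each list the genes called (at most 5) or, with none, the 2 with the smallest p. CD38, MZB1, CD3D, CD2, MEIOC, MATR3 and neighbouring genes were named after their values were seen. Alternatives covered the pseudocount, filter, scaling, trend, voom, replicate block and each library left out. The m6A sequencing of the study was not analysed here.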

Additional observations from a re-analysis of the deposited data

How the results depend on the processing

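No reader or eraser that was tested was called in any of 15 alternatives, voom and the replicate block included. The IGF2BP genes were tested only without a filter, and FTO was not tested with a filter of 5 FPKM. PRMT1 stayed between -2.21 and -2.09 on the log2 scale. ALKBH5 stayed below 0, between -0.23 and -0.13, with an adjusted p of 0.0688 to 0.459. Its lowest adjusted p came with the replicate block, whose fit called 204 genes and none of the 7. The planned fit did not take the numbers as pairs, because the study names unpaired tests between 2 groups. Same-numbered libraries correlated by 0.0200, 0.0631 and 0.101 in their deviations from the group means, and each correlated best with its own number. A pairing of the libraries is therefore not excluded. PABPC1 had an adjusted p of 0.0686 with the block.

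The log2 fold change of YTHDF1 turned to 0.011 when rescaled to TPM, and with 1 library left out it ran from -0.025 to 0.0045 (0.0024 without control replicate 1). Likewise that of YTHDF3 ran from -0.018 (without control replicate 2) to 0.131, also below 0 at -0.0077 without PRMT1 KD replicate 3, and that of YTHDC2 from -0.015 (without PRMT1 KD replicate 3) to 0.145. With 1 library left out, the log2 fold change also ran from -0.063 to -0.011 for YTHDF2 (without PRMT1 KD replicates 2 and 1), from 0.012 to 0.076 for YTHDC1 (without PRMT1 KD replicates 3 and 1) and from 0.031 to 0.103 for FTO (without PRMT1 KD replicate 3 and control replicate 2). The difference in share, PRMT1 KD minus control, ran from -0.892 to 0.236 percentage points for YTHDF1, from -1.57 to -0.0954 for YTHDF2 (without PRMT1 KD replicate 2 and control replicate 2) and from -0.141 to 2.38 for YTHDF3 with 1 library left out, and that of the FTO to ALKBH5 ratio ran from 0.00767 to 0.0146.

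Decay partners of YTHDF2 had 1 call with voom or a filter of 5 FPKM. The partners of the YTHDC and IGF2BP readers had 0 calls without a filter, with median scaling, without trend, with the block, and with any library left out (0 to 0). The described targets had 1 call without a filter or without trend, and 0 to 2 with 1 library left out. Genes called in all numbered 279 in the planned fit, 927 with voom, 473 with a filter of 5 FPKM, 35 without a filter, 43 without trend, and 13 to 95 with 1 library left out. The causes were not tested. The 3 IGF2BP genes lie at the limit of the depth.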
